A study of Homo sapiens with 16 samples.

Results

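After HOXB13 knockdown in LNCaP cells, 14809 of the 30993 HDAC3 peaks (47.8%) overlapped no HDAC3 peak of the control library. These knockdown-only HDAC3 peaks were chosen by the HDAC3 peak calls of both libraries: each was called after knockdown and shared no base with a control peak. The other 16184 knockdown peaks, called shared peaks here, overlapped a control HDAC3 peak. A further 17780 HDAC3 peaks were called only in the control. Since HDAC3 calls made the choice, the HDAC3 values below are descriptions, and intervals of differences are given only for HOXB13, HDAC1, chromatin accessibility and histone acetylation, which the choice did not use.

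HDAC3 is a histone deacetylase. It works inside the NCOR and SMRT corepressor complexes, which transcription factors bring to DNA, and removal of acetyl groups from histones there is known for keeping enhancers and promoters less active. HDAC1 is a related deacetylase that serves other complexes, among them NuRD, SIN3 and CoREST. HOXB13 is a homeobox factor of the prostate lineage that binds many enhancers together with the androgen receptor and FOXA1. ATAC-seq cuts DNA with a transposase where nucleosomes leave it open, so an ATAC peak marks accessible chromatin. H3K27ac, acetylated lysine 27 of histone H3, marks active enhancers and promoters.

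LNCaP is an androgen-sensitive and PC-3 an androgen-independent prostate cancer cell line. LNCaP cells carried a HOXB13 shRNA (shHOXB13), that shRNA together with a lentivirus for HOXB13-WT or HOXB13-G84E, or the control vector pGIPZ, each for 7 days. The lists used were HDAC3 and ATAC-seq after shHOXB13 and in pGIPZ, HOXB13 after shHOXB13, with WT, with G84E and in pGIPZ, and HDAC1 in pGIPZ alone. From PC-3 came H3K27ac after shHOXB13 and in pGIPZ, and HOXB13 in pGIPZ. Every group held 1 library, so no p-value between conditions is given, and all intervals cover counting error over peaks, not the spread between cultures.

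The knockdown HDAC3 library held 26.3 M tags (M, 1000000) and the control library 21.6 M. The other 10 libraries ranged from 13.5 to 47.2 M. As a check of the knockdown, HOXB13 had 22864 peaks after knockdown and 91430 in the control. A knockdown peak met 1353 of the control peaks (1.48%). In the HOXB13 libraries 2.13% of tags lay in peaks after knockdown and 9.17% in the control. Whether the knockdown HOXB13 peaks elsewhere mark bound HOXB13 was not tested. Values are tag counts per 10000000 library tags (normalized tag count). HDAC3 peaks were 365 bp wide after knockdown and 471 bp wide in the control, and 5.08% and 7.63% of all tags lay in peaks. The fragment lengths estimated in the headers were 364 bp after knockdown and 146 bp in the control, and their part in the peak extents, and so in the 47.8%, was not tested. The knockdown-only share was 76.6% when a match needed peak centres within 100 bp. No input library is named in the peak-calling commands. No peak is paired with a gene in these lists, and no sequence of their genome build, hg19, was used here, so regions are given by position alone.

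The knockdown-only peaks were weak HDAC3 peaks. Their median normalized tag count was 10.3 (quartiles 8.36 and 12.9; 27 tags in the median peak), against 14.1 (10.6 and 19.4; 37 tags) for shared peaks. The authors' deposited findPeaks score, which started at 14 in the knockdown list, had a median of 16 in knockdown-only and 23 in shared peaks. At scores of 14 and 15 knockdown-only peaks made up 75.3% of all knockdown HDAC3 peaks, and at scores of 50 and above 8.32%, or 74 peaks. Tags stood a median 5.71-fold over the surrounding sequence at knockdown-only peaks and 6.82-fold at shared peaks, by the authors' values. At either side of the overlap rule the peaks were much alike. The 372 knockdown-only peaks with 0 to 50 bases between them and a control peak had a median of 12.2, and the 456 shared peaks with an overlap of 1 to 50 bases one of 12.5. The lists hold no control tag count for sites without a control peak, so HDAC3 signal there below the calling limits was not analysed here.

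Most knockdown-only HDAC3 peaks had no control HOXB13, ATAC or HDAC1 peak called at them. A control HOXB13 peak was found at 2804 of them, 18.9% (95% CI 18.3 to 19.6), an ATAC peak of either library at 2835 (19.1%, 18.5 to 19.8), and a control HDAC1 peak at 1082 (7.31%, 6.90 to 7.74). None of these was found at 9585, or 64.7% (64.0 to 65.5). Shared HDAC3 peaks had them at 35.7%, 58.3% and 29.8%, and none at 23.5%. HDAC3 peaks called only in the control had none at 45.7%. Over all knockdown HDAC3 peaks the shares were 27.7% for control HOXB13, 39.6% for ATAC in either library, 19.1% for HDAC1 and 43.2% for none of these. The HOXB13 share of knockdown-only peaks fell to 7.91% with centres within 100 bp, 12.3% when 50% of the shorter peak had to be covered, and 9.43% with every list reduced by score to the length of the shortest. The HDAC1 share was 15% with these equal list lengths.

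**Figure D1:**
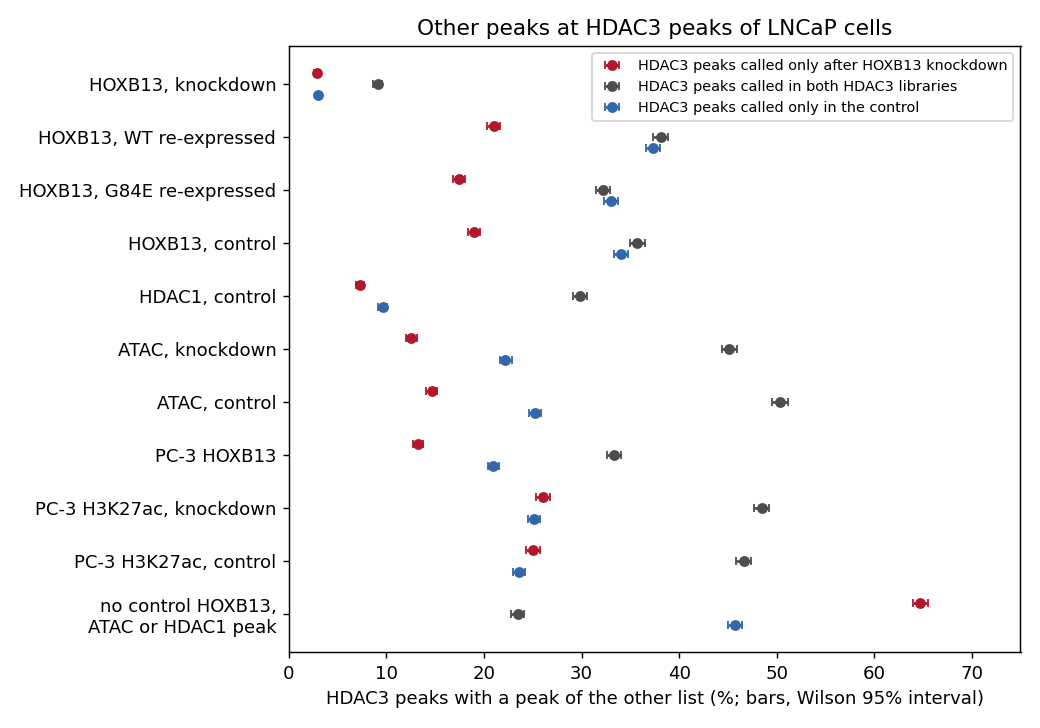
Share of HDAC3 peaks (x axis, %) that overlapped a peak of each other list (y axis), for peaks called only after HOXB13 knockdown, in both HDAC3 libraries, and only in the control; points are shares and bars Wilson 95% intervals. Knockdown-only peaks lie left of shared peaks for all 10 lists and right of them for the absence of HOXB13, ATAC and HDAC1 peaks (64.7% against 23.5%).

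The difference between knockdown-only and shared peaks was far larger than counting error. It was -16.8 percentage points for control HOXB13 (95% CI -17.8 to -15.8), -39.2 for ATAC (-40.2 to -38.2) and -22.5 for HDAC1 (-23.3 to -21.7). For HOXB13 it was -9.64 (-11 to -8.29) in the better-scoring 50% of every list and -7.31 (-8.31 to -6.29) with equal list lengths, and for HDAC1 -8.71 (-9.59 to -7.86) with close centres. Because knockdown-only peaks were weaker, both sets were also compared within 10 equal groups of knockdown HDAC3 tag count, weighted by the knockdown-only peaks. The difference for HOXB13 was then -16 points (-17.2 to -14.9). Strength still varied within each group. The differences for ATAC and HDAC1 shrank to -28.1 (-29.2 to -26.9) and -11.7 (-12.5 to -10.9).

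HOXB13 and accessibility followed HDAC3 strength in different ways. A control HOXB13 peak lay at 16% of the knockdown-only peaks in the weakest group, 18% in the fifth and 29.7% in the strongest. For knockdown ATAC peaks the shares in the same groups were 5.58%, 11.1% and 43.9%, and for HDAC1 3.19%, 5.81% and 29.4%. Thus HOXB13 was nearly level up to the seventh group (19.6%), whereas ATAC and HDAC1 climbed throughout. In each of the 10 groups the knockdown-only peaks had fewer HOXB13, HDAC1 and knockdown ATAC peaks than the shared peaks of that group.

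**Figure D2:**
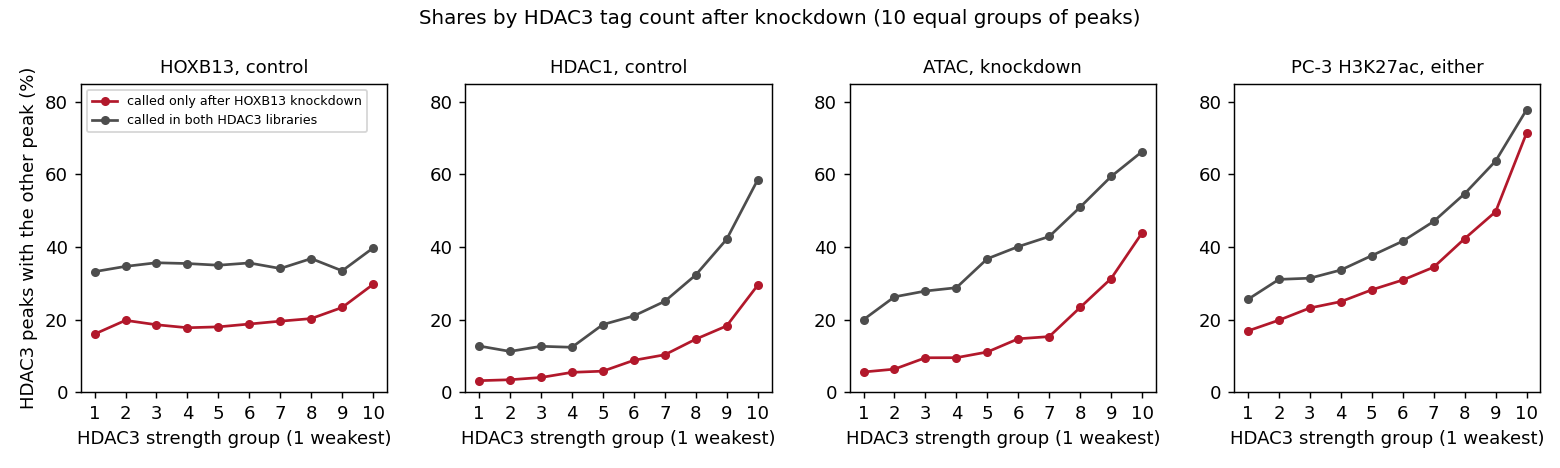
Share of HDAC3 peaks with each other peak (y axis, %) in 10 equal groups of knockdown HDAC3 normalized tag count (x axis, 1 weakest), for knockdown-only and shared peaks. Among knockdown-only peaks HOXB13 stays between 16% and 19.8% up to the seventh group and reaches 29.7% in the strongest, the other shares are several times higher in the strongest group than in the weakest, and the knockdown-only line stays below in each panel.

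Splitting by HOXB13, ATAC and HDAC1 together gave 8 classes. HOXB13 without ATAC or HDAC1 was the sole class with a peak of another factor that was not less common among knockdown-only peaks. It held 1842 of them, 12.4% (95% CI 11.9 to 13.0), against 11.4% of shared peaks (difference 1.02 points, 0.298 to 1.74). HOXB13 with ATAC held 831 (5.61% against 16.8%), and HOXB13 with HDAC1 but no ATAC 48 (0.324% against 1.56%). ATAC alone held 1469 (9.92% against 18.5%), ATAC with HDAC1 452 (3.05% against 17.1%) and HDAC1 alone 499 (3.37% against 5.23%). All 3 were present at 83 (0.560% against 5.91%). Read the other way, 71.6% of the knockdown HDAC3 peaks with none of these were knockdown-only, and 7.98% of those with all 3.

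Tag counts differed between the classes as well. The median HDAC3 tag count of knockdown-only peaks was 16.3 (quartiles 12.4 and 20.5) where all 3 were present, 14.1 with ATAC and HDAC1, and 12.2 with HOXB13 and ATAC. It was 9.88 (8.36 and 12.2) both with HOXB13 but no ATAC or HDAC1 and with none of the 3. Peaks of the first kind were thus no stronger than those of the second, and both classes could hold peaks of the remaining lists. The quartile range with all 3 present lay just above the range of these 2 classes, and the quartile ranges of the other classes overlapped with it.

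**Figure D3:**
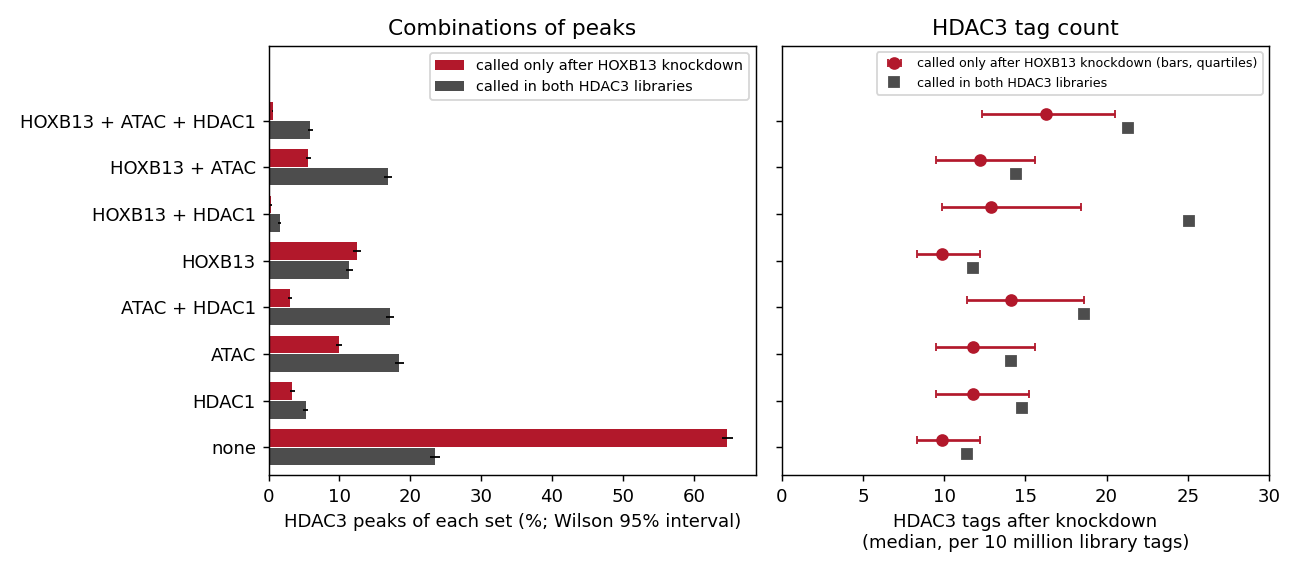
Left, share of knockdown-only and of shared HDAC3 peaks (x axis, %; Wilson 95% intervals) in 8 combinations of control HOXB13, ATAC in either library and HDAC1 (y axis). Right, median knockdown HDAC3 normalized tag count of the same classes, with quartile bars for knockdown-only peaks. HOXB13 alone is about as common in both sets, and peaks with none dominate the knockdown-only set.

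Within the knockdown-only peaks, ATAC peaks were more frequent, and HDAC1 peaks less frequent, where HOXB13 lay. Of the 2804 with a HOXB13 peak, 32.6% had an ATAC peak, against 16% of the 12005 without (difference 16.6 points, 95% CI 14.8 to 18.5). An HDAC1 peak lay at 4.67% of those with HOXB13 and 7.92% of those without (-3.25, -4.13 to -2.28). Accessibility was most frequent where HDAC1 lay, with ATAC at 49.4% of the 1082 peaks with HDAC1 and 16.8% of the others (32.7, 29.7 to 35.7). With equal list lengths the ATAC difference by HOXB13 was 9.39 points, the HDAC1 difference by HOXB13 -10.9, and the ATAC difference by HDAC1 19.99. The last was 18.97 with close centres. These splits were made among knockdown-only peaks alone, so they are not shown to be particular to them.

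The HOXB13 sites under knockdown-only peaks were somewhat stronger than the control HOXB13 list at large, and few were called again after knockdown. The HOXB13 peak there had a median normalized tag count of 9.02 (quartiles 6.98 and 13.4), against 10.5 under shared peaks and 7.28 over the whole control list. Their centres lay a median 141 bp from the HDAC3 centre, and 126 bp at shared peaks. Of the control HOXB13 sites at knockdown-only peaks 4.03% (95% CI 3.36 to 4.82) were called again in the knockdown HOXB13 library. The share was 8.84% at shared peaks and 1.48% over all control HOXB13 sites.

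Re-expressed HOXB13 was called at most of these sites, as it was at most control HOXB13 sites in general. The WT and G84E lists held 190879 and 191796 peaks, against 91430 in the control list, and the part of list length in these shares was not tested. WT was called at 73.7% of the HOXB13 sites under knockdown-only peaks (72.0 to 75.3) and at 79.1% of those under shared peaks, with 67.4% over all control HOXB13 sites. For G84E the shares were 65.9% (64.1 to 67.6), 71.5% and 63.2%. Neither form was called at 19.2%, against 15.1% and 23.6%. The difference from sites under shared peaks was -5.45 points (-7.41 to -3.53) for WT and -5.56 (-7.67 to -3.46) for G84E. At equal HOXB13 strength it was -1.86 (-3.72 to 0.00692) and -1.37 (-3.36 to 0.609), so no difference was detectable then. With close centres the G84E difference was -8.34 (-11.6 to -5.03). HDAC3 was not mapped with either form.

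Counted from the HDAC3 side, a WT peak lay at 21.0% and a G84E peak at 17.4% of all knockdown-only peaks. Shared peaks had 38.1% and 32.2%, and all knockdown HDAC3 peaks 29.9% and 25.1%. WT or G84E peaks without a control HOXB13 peak were found at 1526 knockdown-only peaks (10.3%), against 14.1% of shared and 12.3% of all knockdown HDAC3 peaks. The knockdown HOXB13 list met 2.88% (2.62 to 3.16) of the knockdown-only peaks, against 9.10% of shared and 6.12% of all knockdown HDAC3 peaks. A HOXB13 peak in any of the 4 LNCaP HOXB13 lists lay at 30.9% of the knockdown-only peaks, against 54.2% of shared and 43.1% of all knockdown HDAC3 peaks.

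ATAC-seq showed whether the sites where HDAC3 was newly called also gained accessibility. A knockdown ATAC peak lay at 1861 knockdown-only peaks, 12.6% (95% CI 12 to 13.1), and a control ATAC peak at 2166, 14.6% (14.1 to 15.2). Over all knockdown HDAC3 peaks these shares were 29.6% and 33.3%. Of the 2835 knockdown-only peaks with ATAC in either library, 669 (23.6%) had it after knockdown alone, 1192 (42.0%) in both libraries and 974 (34.4%) in the control alone. More of them therefore had an ATAC peak in the control alone than after knockdown alone.

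Accessibility calls at knockdown-only peaks were less stable than at shared peaks, in both directions. The share with ATAC in both libraries was 42.0% against 63.7% at shared peaks (difference -21.7 points, -23.7 to -19.6). ATAC after knockdown alone was 9.92 points (8.24 to 11.7) and ATAC in the control alone 11.7 points (9.82 to 13.7) more frequent. At HDAC3 peaks called only in the control, 53.9% of those with ATAC had it in both libraries (difference -11.8, -14.1 to -9.59). Among sites with ATAC in 1 library alone, that library was the knockdown at 40.7% (38.4 to 43.1) of knockdown-only and 37.7% of shared peaks, a difference of 3.02 points (0.160 to 5.91). With peak centres within 100 bp this difference was -2.73 (-5.72 to 0.253), and the differences for ATAC in both libraries and after knockdown alone were -13.4 and 3.80. That for ATAC in the control alone was 7.07 with equal list lengths. The knockdown share among sites with ATAC in 1 library was 39.4% at HDAC3 peaks called only in the control. It was 38.1% over all ATAC peaks called in 1 library. Over the whole ATAC lists, 18521 knockdown peaks met a control ATAC peak. Another 11411 did not, and 18538 control ATAC peaks met no knockdown one. Calls in 1 ATAC library alone were thus common in general, and the lower stability holds only relative to the other HDAC3 peaks. The knockdown ATAC library had fewer tags than the control one (25.5 M and 36.1 M). ATAC peaks were also weaker at knockdown-only than at shared peaks (median 5.89 against 7.06 after knockdown, 4.98 against 6.09 in the control). The part of depth and of ATAC strength in these shares was not tested.

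**Figure D4:**
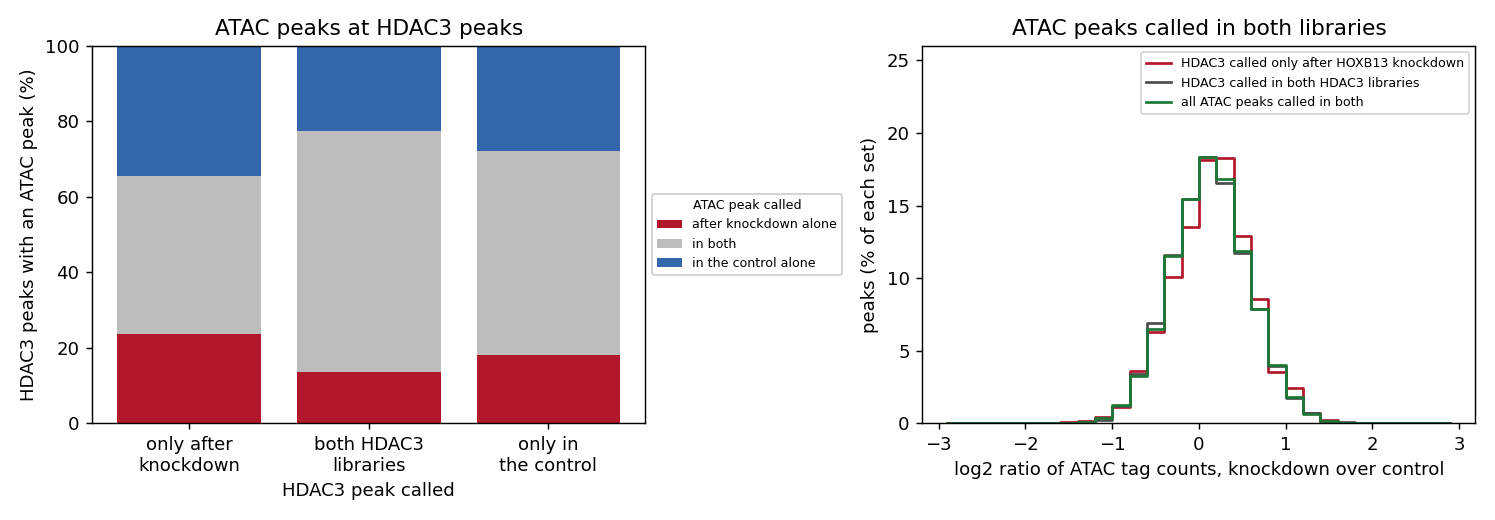
Left, HDAC3 peaks with an ATAC peak (y axis, %) divided by the ATAC library that called it, for HDAC3 peaks called only after knockdown, in both libraries and only in the control (x axis). Right, share of peaks (y axis, %) by log2 ratio of ATAC normalized tag counts, knockdown over control (x axis), where both ATAC libraries had a peak, for knockdown-only and shared HDAC3 peaks and for all such ATAC peaks. ATAC peaks in 1 library alone are more frequent at knockdown-only than at shared or control-only HDAC3 peaks, in both directions. The 3 distributions have medians of 0.16, 0.12 and 0.12.

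Where both ATAC libraries had a peak, its tag count changed little at knockdown-only HDAC3 peaks. The median log2 ratio, knockdown over control, was 0.16 (95% CI 0.12 to 0.18, from ranks) over 1192 knockdown-only peaks and 0.12 over 6014 shared peaks. Over all 18521 such ATAC peaks it was also 0.12. A log2 ratio of 1 or above was found at 40 knockdown-only peaks (3.36%), with 2.64% over all ATAC peaks, and one of -1 or below at 8 (0.671%, with 0.47% overall). Knockdown ATAC peaks were wider (111 bp and 96 bp), and as tag density the median at knockdown-only peaks was -0.053. With equal list lengths it was 0.062. The level itself thus depended on the scale and the list lengths, while its distance from the median of all ATAC peaks was 0.032.

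Where HDAC1 lay, ATAC peaks of 1 library alone came less often from the knockdown. Among knockdown-only peaks with ATAC in 1 library alone, the knockdown was that library at 31.2% (26.1 to 36.8) where an HDAC1 peak lay and 42.7% (40.1 to 45.3) elsewhere. The difference was -11.5 points (-17.3 to -5.28). It was -5.14 (-10.8 to 0.797) when 50% of the shorter peak had to be covered, and -1.22 (-6.75 to 4.56) with close centres. For HOXB13 the shares were 38.6% with and 41.5% without it (difference -2.88, -8.08 to 2.45), which was not detectable at these numbers. A split by distance gave a similar contrast. The share was 31.3% within 1000 bp of a control HDAC3 peak and 43.5% farther away (-12.2, -17.5 to -6.67). HDAC1 was also more frequent at those near peaks (16.1% against 5.63%), and whether HDAC1 or distance goes with the contrast was not tested.

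The HDAC1 peaks themselves were as strong at knockdown-only HDAC3 peaks as in the HDAC1 list at large, with a median normalized tag count of 17.2 in both, and 19.3 at shared peaks. ATAC peaks there were weaker than at shared peaks. After knockdown the median ATAC tag count was 5.89 at knockdown-only and 7.06 at shared HDAC3 peaks, and in the control 4.98 and 6.09. HDAC1 was mapped in the control alone, so its change with HOXB13 is not known.

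HDAC3 peaks called only in the control were likewise called in 1 HDAC3 library. Their median normalized tag count was 13.0 and their median score 20, against 10.3 and 16 for knockdown-only peaks. These values come from different libraries and calling limits. Scores started at 16 in the control list and at 14 in the knockdown list. In whole tags the medians were 28 and 27, and the fold over the surrounding sequence 5.89 and 5.71. The part of strength in the differences below was not tested. Control-only peaks held more HOXB13 (34.0%) and more ATAC (30.8%) than knockdown-only peaks. The differences were -15.1 points (95% CI -16.0 to -14.2) and -11.7 (-12.6 to -10.7). Control peaks were wider. With control peaks set to the knockdown width, the differences were -13.6 (-14.5 to -12.6) and -10.3 (-11.2 to -9.39). HDAC1 lay at 7.31% of knockdown-only and 9.61% of control-only peaks (-2.30, -2.90 to -1.70). At the knockdown width the difference was -1.52, but with close centres the difference was 0.244 (-0.164 to 0.654). The knockdown HOXB13 list met 2.88% and 2.99% of them.

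Most knockdown-only peaks had no control HDAC3 peak within 1000 bp. How their distances compare with those of randomly placed sites was not tested. The gap to the nearest was a median of 13.2 kb (quartiles 3.92 and 33.4 kb), and 2367 (16%) had a control peak within 1000 bp. Those nearby were stronger, with a median tag count of 11.8 against 10.3 for the 12442 farther away. They also carried more HDAC1 (16.1% against 5.63%, difference 10.5 points, 9.03 to 12.1) and more ATAC (27.7% against 17.5%, 10.2 points, 8.26 to 12.1). HOXB13 lay at 15.5% nearby and 19.6% farther away (-4.08, -5.65 to -2.42, and -2.18 with equal list lengths), but not in a steady course. It was 21.2% at gaps of 0 to 50 bp, 15.2% up to 500 bp and lowest, 12.7%, up to 1000 bp, then 18.4% up to 10 kb, and 22.8% beyond 100 kb.

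**Figure D5:**
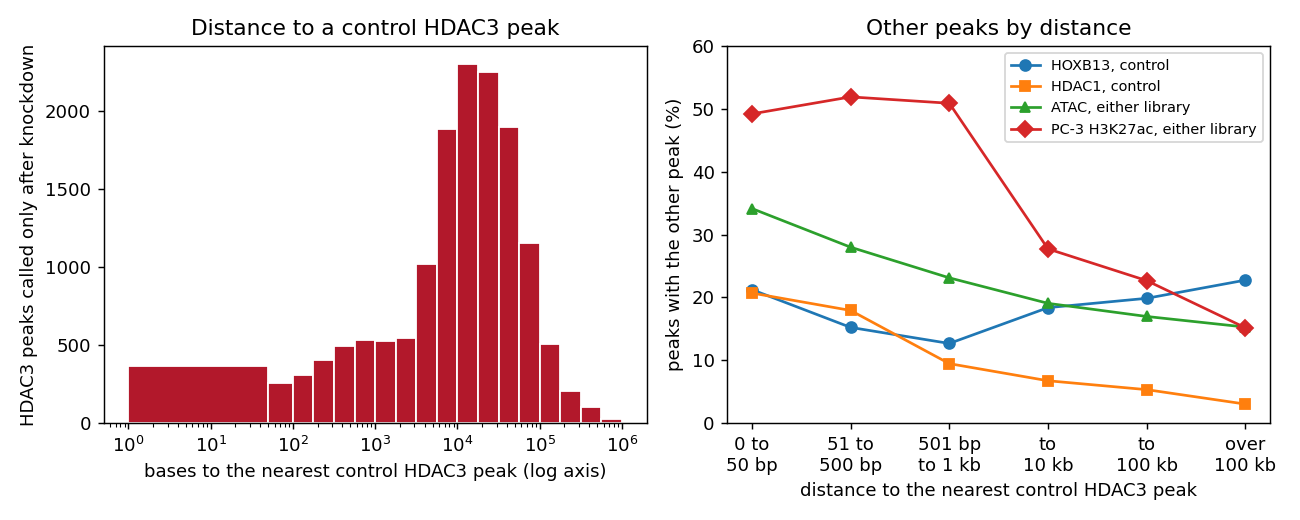
Left, number of knockdown-only HDAC3 peaks (y axis) by bases to the nearest control HDAC3 peak (x axis, log scale). Right, share of them (y axis, %) with each other peak in 6 ranges of that distance. HDAC1, ATAC and PC-3 H3K27ac are most frequent within 1 kb, and HOXB13 is high at both ends (21.2% and 22.8%) and lowest in the range that ends at 1 kb (12.7%).

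PC-3 cells gave the only acetylation data analysed here, and they say nothing of the state of a site in LNCaP. A PC-3 H3K27ac region after HOXB13 knockdown covered 26.1% of the knockdown-only peaks (95% CI 25.4 to 26.8), and one in the PC-3 control 25% (24.3 to 25.7). Shared HDAC3 peaks had 48.5% and 46.6%, and all knockdown HDAC3 peaks 37.8% and 36.3%. HDAC3 peaks called only in the control had 25.1% and 23.6%, close to the knockdown-only shares. At equal HDAC3 strength the differences from shared peaks were -10.6 points (-11.7 to -9.49) and -9.33 (-10.4 to -8.23). Acetylation in PC-3 was most frequent where HDAC1 lay, at 67.4% of knockdown-only peaks with HDAC1 and 25.1% of the others (42.3 points, 39.4 to 45.1). By class it ran from 84.3% where HOXB13, ATAC and HDAC1 met to 21.8% where none did.

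PC-3 HOXB13 peaks, mapped with a different antibody from the LNCaP ones, lay at 13.2% of knockdown-only peaks (12.7 to 13.8), against 33.3% of shared and 23.7% of all knockdown HDAC3 peaks. They were found at 31.7% of the knockdown-only peaks with a control LNCaP HOXB13 peak and 8.91% of those without (22.8 points, 21.1 to 24.6). Counting all 12 lists, 6295 knockdown-only peaks (42.5%, 41.7 to 43.3) had no peak or region of any other list. Shared peaks lacked one in the 10 lists other than HDAC3 at 11.8%, and all knockdown HDAC3 peaks at 26.5%. Peaks of 4 or more of these 10 lists lay at 2315 knockdown-only peaks (15.6%), against 52.3% of shared and 34.8% of all knockdown HDAC3 peaks.

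The strongest knockdown-only peaks had high counts in several libraries. The strongest lay on chromosome 1 at 566253 to 566617, with a normalized HDAC3 tag count of 1468 (exact 95% CI 1422 to 1515). Its nearest control HDAC3 peak was 0.732 kb away, and PC-3 HOXB13 had 330.8 there. The second, on chromosome 11 at 51579426 to 51579790, had 813.8 (780 to 849). HOXB13 counts there were 799.4 after knockdown, 543.6 with WT, 507.8 with G84E and 580.9 in the control, and a control HDAC3 peak was 0.497 kb away. The third, on chromosome 6 at 58779010 to 58779374, had 603.2 (574 to 634), and its ATAC counts were 150.3 after knockdown and 127.6 in the control. At these 3 regions a knockdown HOXB13 peak was called too, and 2 of them had a control HDAC3 peak within 1 kb. All 3 also lay in PC-3 H3K27ac regions of both libraries, with counts up to 2625.1. No regions were removed for high counts across unrelated libraries, here or in the picks below. Whether the counts at such regions, or at any of the picks below, reflect bound HDAC3 was not tested.

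Regions were also picked by strength within each class, on chromosomes 1 to 22 and X, with no control HDAC3 peak within 1000 bp and called in at most 8 of the 12 lists. With HOXB13 the first was on chromosome 8 at 43822306 to 43822670, with an HDAC3 tag count of 112.9 (exact 95% CI 100.4 to 126.5). HOXB13 counts there were 191.3 after knockdown, 142.8 with WT, 122.9 with G84E and 169.7 in the control, so the count after knockdown was the highest of the 4. A more isolated one lay on chromosome 3 at 142546115 to 142546479. It had an HDAC3 count of 48.3 (40.2 to 57.4), 18.3-fold over its surroundings, and HOXB13 counts of 4.45 after knockdown and 5.24 in the control. All 5 regions picked with HOXB13 also had a knockdown HOXB13 peak, whereas 4.67% of all knockdown-only peaks with HOXB13 did. These 5 were ranked by HDAC3 tag count, with no filter for high counts across libraries. They therefore do not stand for the knockdown-only peaks with HOXB13 in general.

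With HDAC1 and no control HOXB13 peak the strongest was on chromosome 6 at 26199693 to 26200057. Its HDAC3 count was 44.5 (36.8 to 53.3), its HDAC1 count 12.2, and ATAC was called in the control alone (3.87). The PC-3 H3K27ac region over it had a normalized tag count of 443 after knockdown and 262.6 in the control. On chromosome 22 at 21996046 to 21996410 the HDAC3 count was 33.4 (26.8 to 41.2), HDAC1 had 20.1, and ATAC had 13 after knockdown and 9.13 in the control. On chromosome 11 at 8703985 to 8704349 the counts were 36.1 (29.2 to 44.1) for HDAC3, 20.8 for HDAC1, and for ATAC 7.46 after knockdown and 6.92 in the control. A HOXB13 peak was called there after knockdown (6.14) but not in the control. All 5 regions picked with HDAC1 had PC-3 H3K27ac regions of both libraries.

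With none of control HOXB13, ATAC and HDAC1, the strongest lay on chromosome 10 at 42542826 to 42543190, with an HDAC3 count of 185.9 (169.8 to 203.1). PC-3 HOXB13 and both PC-3 H3K27ac lists had peaks there. Regions with no other peak of any list were led by chromosome 12 at 3320840 to 3321204 (41.1, 33.7 to 49.6, and 14.3-fold over its surroundings) and chromosome 4 at 49318246 to 49318610 (40.7, 33.3 to 49.1).

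Of the 5 regions picked with ATAC after knockdown alone, 3 had HDAC3 counts of 30 to 31.9. On chromosome 3 at 183013148 to 183013512 the HDAC3 count was 31.5 (25.1 to 39.1), the knockdown ATAC count 5.49, and HOXB13 had 8.94 with WT and 11.1 in the control but no peak after knockdown. On chromosome 15 at 40398898 to 40399262 HDAC3 had 30 (23.8 to 37.4) and knockdown ATAC 9.03, with HOXB13 called with WT alone (5.96). On chromosome 19 at 3984030 to 3984394 HDAC3 had 31.9 (25.5 to 39.5), HDAC1 35.1 and knockdown ATAC 5.10. These 3 had their nearest control HDAC3 peak at 3.27, 3.22 and 5.76 kb. The other two of this kind, on chromosome 10 at 42364573 to 42364937 and chromosome 12 at 125398655 to 125399019, had HDAC3 counts of 92.7 and 43.7 and large PC-3 H3K27ac regions over them. The chromosome 3 region alone among the 5 had a control HOXB13 peak.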

How the data were processed

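HDAC1, HDAC3, HOXB13 and H3K27ac were measured by ChIP-seq and accessibility by ATAC-seq (50000 cells). Groups came from the labels, 1 library each, and 12 of 16 samples were used; the LNCaP H3K27ac samples were not analysed here. The submitters' processing notes list Bowtie2, HOMER 4.2 and hg19. Peaks were called per library with findPeaks at a false discovery rate of 0.001, per the file headers, in the factor style with 4-fold enrichment over 10000 bp, or the histone style for H3K27ac. The signal is the deposited normalized tag count per 10000000 tags. The findPeaks score and the fold over local background are the authors' deposited values; the deposited focus ratio (a fraction) and local p-value were not used.

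Whole tags were recovered from the header totals (100% of values within 0.3 tags), and exact Poisson intervals come from them. Peaks overlapping by at least 1 bp were taken as meeting; the highest tag count was used where several met. Shares have Wilson and differences Newcombe 95% intervals. Differences at equal strength are weighted over 10 groups of tag count, with normal intervals. Interval and overlap code was tested on simulated data. Members, comparisons and alternatives were chosen with earlier results of these data known. Named regions were the 5 strongest knockdown-only peaks and the 5 strongest in each class. Python 3.11.15, numpy 2.4.6, pandas 2.3.3, scipy 1.17.1 and matplotlib 3.10.9 were used. Alternatives changed the overlap rule, list lengths, chromosomes and scale.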

Additional observations from a re-analysis of the deposited data

How the results depend on the processing

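Of 229 alternative values for 36 differences of shares, 215 kept direction and side of 0, and 28 differences did so under every alternative run; the cause of the others was not tested. No paired analysis was possible because each group held 1 library. With close centres, 50% overlap, no control peak within 1000 bp, the better-scoring 50% and equal numbers, the knockdown-only share was 76.6%, 57.5%, 40.1%, 39.7% and 42.6%. In the same order HDAC1 lay at 5.93%, 6.34%, 5.63%, 8.31% and 15% of knockdown-only peaks. HOXB13 lay at 7.91%, 12.3%, 19.6% and (equal numbers) 9.43%. ATAC lay at 16.3%, 17.5% and 20.9% with close centres, without near control peaks and in the better-scoring 50%. None lay at 74.8%, 70.1%, 66.3% and 61.6% with the first 4.

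Knockdown-only minus control-only peaks was -2.30 points for HDAC1 and 1.14 for PC-3 H3K27ac in either library. These reversed to 0.244 (close centres) and -0.383 (no control peak within 1000 bp). Knockdown-only minus shared peaks, for the knockdown share of ATAC in 1 library, reversed to -2.73 (close centres) and fell short at 2.92 (better-scoring 50%) and 2.34 (equal numbers). With minus without HDAC1, that share differed by -1.22 (close centres) and -5.14 (50% overlap). PC-3 H3K27ac with minus without HOXB13 was 2.71, and 0.487 (close centres), 1.83 (50% overlap), -5.78 (better-scoring 50%) and -7.55 (equal numbers). At equal HOXB13 strength the fates differed by -1.86 (WT), -1.37 (G84E) and 1.44 (neither). The median ATAC log2 ratio was 0.11 (close centres), 0.099 (better-scoring 50%), 0.062 (equal numbers), 0.032 (centred) and, reversed, -0.053 (density). Motif, transcription start and gene list comparisons were not run. The control width was set to that of the knockdown after the data were seen.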

Other observations

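Knockdown-only HDAC3 peaks were spread over all chromosomes. They made up 35.3% (95% CI 32.5 to 38.1) of the 1129 knockdown HDAC3 peaks on chromosome 19, the lowest share, and 40.6% (36 to 45.4) of the 414 on chromosome X. The highest share was 53.5% (49.6 to 57.4) of the 628 on chromosome 13. Since HDAC3 calls chose the peaks, these shares are a description. Another 79 lay on unplaced or alternate sequences. The median distance between the centres of neighbouring knockdown-only peaks was 40.5 kb, and 37.1 kb between shared peaks. Another knockdown-only peak lay within 10 kb of 15.7% of them, against 12.6% of shared peaks with another shared peak that near, and a shared peak lay within 10 kb of 16.9%.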
